A study of Mus musculus with 16 samples.

Results

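Transient receptor potential (TRP) channels were followed as a group of 7 genes, Trpv1, Trpv2, Trpa1, Trpm8, Trpm2, Trpm3 and Trpc6, in mouse lumbar dorsal root ganglia (DRG). They were taken by symbol from a table of read counts with 24982 gene entries, and all 7 were in it. Poly-A RNA sequencing had been made from ganglia on the side of an injected ankle in C57BL/6 mice of 10 to 12 weeks, taken 14 days after the injection. The 4 groups were wild-type (WT) mice given vehicle, which the titles call saline, WT mice given the inflammatory agent complete Freund's adjuvant (CFA), and knock-in (KI) mice, named TrkA/C in the labels, given either. Each group had 4 libraries, and each library pooled 6 ganglia of 2 mice, so the spread given below is between pools. The labels do not describe the knock-in construct or say in which cells it acts, and no other agent or allele is named for any group.

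TRP channels are cation channels of the cell membrane that open to temperature, chemicals or lipid signals and depolarise the endings of sensory neurons. In the DRG they are best known from nociceptors, the neurons that respond to noxious stimuli. Trpv1 is the receptor for capsaicin and noxious heat, Trpm8 the receptor for menthol and cold, and Trpa1 the receptor for mustard oil and other reactive irritants. Trpm3 opens to heat and to the steroid pregnenolone sulfate, Trpm2 to ADP-ribose and oxidative stress, and Trpc6 to diacylglycerol. Trpv2 is a relative of Trpv1 that is best known from larger neurons with myelinated fibres. Nerve growth factor acts through its receptor TrkA on peptidergic nociceptors and is known to raise the activity of Trpv1.

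The 7 genes lie apart in the genome, except that Trpv1 and Trpv2 share chromosome 11 (positions in build mm10). Trpv1 spans chr11:73234292-73261242 on the plus strand and Trpv2 spans chr11:62574486-62600515 on the plus strand. Trpm8 lies at chr1:88277661-88389293 on the plus strand and Trpa1 at chr1:14872648-14918862 on the minus strand. Trpm2 lies at chr10:77907722-77970563 on the minus strand, Trpm3 at chr19:22139046-22995410 on the plus strand and Trpc6 at chr9:8544142-8680741 on the plus strand. The exons of Trpm8 share 388 bases, or 9.36% of their length, with the antisense gene 4930453O03Rik. Those of Trpm3 share 351 and 228 bases with 2 genes of the other strand, and those of Trpm2 share 47 and 44 bases with 2 small nucleolar RNAs on its own strand. The counting mode is not given in the sources used here, so reads from these shared stretches cannot be assigned to either gene.

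Trpv1 and Trpm8 were the only members that passed the test between genotypes, and sequences before a transcript start that RefSeq gives for each are shown for that reason (build GRCm38.p6, plus strand). These RefSeq starts differ from the ends of the gene spans above, which come from GENCODE. The Trpv1 stretch holds the 250 bases before a RefSeq start that lies upstream of the GENCODE span, at chr11:73233899-73234148. The Trpm8 stretch, at chr1:88306485-88306661, precedes a RefSeq start inside the GENCODE span and is thus not the sequence before the whole gene; it holds 177 bases, since the last 73 of the 250 overlap an annotated exon and are left out. Capitals mark a match to the core motif of RUNX factors, TGTGGT.
Trpv1: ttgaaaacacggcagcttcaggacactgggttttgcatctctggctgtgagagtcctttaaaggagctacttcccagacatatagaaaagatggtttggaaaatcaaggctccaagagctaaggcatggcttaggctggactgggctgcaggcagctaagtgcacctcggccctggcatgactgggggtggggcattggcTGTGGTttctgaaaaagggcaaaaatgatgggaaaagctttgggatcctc
Trpm8: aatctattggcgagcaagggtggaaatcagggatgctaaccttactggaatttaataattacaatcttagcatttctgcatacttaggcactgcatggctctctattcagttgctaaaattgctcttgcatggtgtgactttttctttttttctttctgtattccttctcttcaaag
Both strands were searched for TGTGGT, for the GC box GGGCGG and for the site of the AP1 factors, TGANTCA. The Trpv1 window held 1 match, the RUNX core in capitals, and the Trpm8 window held none. Of 32851 RefSeq windows of 250 bases, 14.0% held a RUNX core, 32.7% a GC box and 6.75% an AP1 site. The motifs and both windows were chosen after the expression values had been seen.

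Library totals ran from 22742209 to 40910947 counts, and every member was well covered, from 515 counts for Trpc6 in the lowest library to 9346 for Trpv1 in the highest. Levels are given as counts per 1000000 library counts (CPM) with TMM scaling, and 15507 genes, among them all 7 members, passed the filter on low counts. Ntrk3, the gene of TrkC, lay between 29.3 and 61.4 CPM in the 8 WT libraries and between 99.1 and 138 CPM in the 8 KI libraries. The genotype tag of WT CFA 1 says knock-in, against its title, and its Ntrk3 level lay among the WT libraries. Sensory neuron markers were high in every library, with Avil from 810 to 1177 CPM, Prdm12 from 207 to 285 CPM and Isl1 from 83.8 to 101.5 CPM. Skeletal muscle transcripts, which belong to no cell of the ganglion, summed to at most 454 CPM in KI saline, 34.2 CPM in WT saline, 25.7 CPM in KI CFA and 3.08 CPM in WT CFA. Summed neutrophil markers reached 157 CPM in KI CFA 3 and at most 17.6 CPM in WT.

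Compared per length of the exons of RefSeq-matched transcripts, Trpv1 was the most abundant member and Trpc6 the least in every group. In WT saline, Trpv1 had 82.2 ± 4.94 CPM per kb (SD, n = 4). Trpv2 followed at 30.8 CPM per kb, Trpa1 at 17.4, Trpm8 at 13.2, Trpm2 at 7.88, Trpm3 at 5.75 and Trpc6 at 4.22. No neighbours in that order had overlapping ranges in WT saline. In the other 3 groups the ranges of Trpm2 and Trpm3 overlapped, and in KI CFA so did those of Trpm3 and Trpc6. Trpv1 stood at 53.4 CPM per kb in KI CFA, the lowest of its 4 group means, and was still above Trpv2 at 32.0. With exons of all annotated transcripts as the length, Trpv1 stayed first, but Trpm3 moved below Trpc6 in every group. Trpm2 also moved below Trpc6 in 3 of the 4 groups, with overlapping ranges in WT CFA and KI saline and without overlap in KI CFA (3.8 against 5.1 CPM per kb), and Trpa1 stood above Trpv2 in WT CFA, with overlapping ranges.

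**Figure D1:**
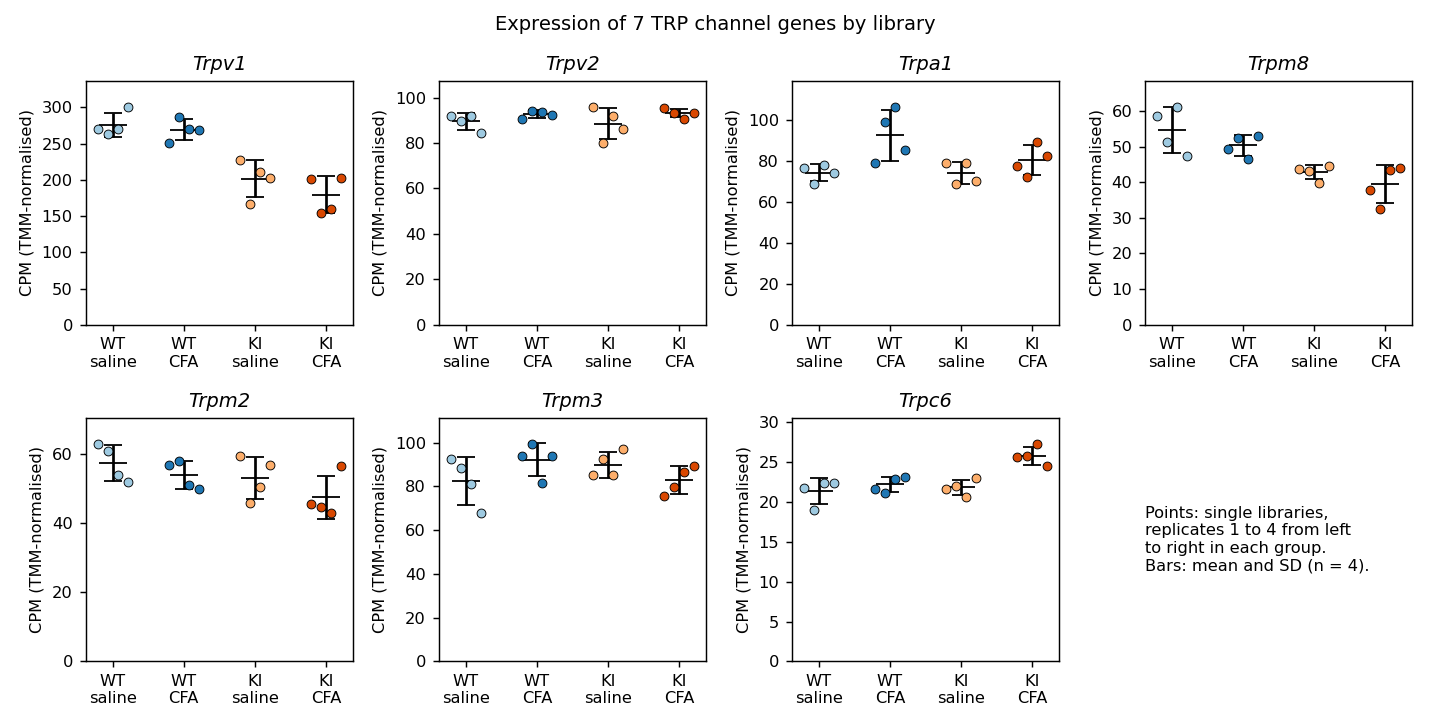
Expression of the 7 TRP channel genes, in TMM-normalised CPM on the vertical axis, in each library of the 4 groups on the horizontal axis; points are libraries and bars give the mean and SD (n = 4). Trpv1 and Trpm8 lie lower in KI than in WT with both injections, Trpa1 lies higher in WT CFA than in WT saline, and Trpc6 is highest in KI CFA.

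The first question was how the channels differ between KI and WT ganglia without joint inflammation. Trpv1 and Trpm8 fell in KI and the other 5 genes did not pass the test. With saline, Trpv1 stood at 270.5, 262.8, 270.9 and 300.4 CPM in WT libraries 1 to 4 and at 226.9, 166.8, 210.3 and 203.1 CPM in KI libraries 1 to 4. Every KI library was below every WT library. The difference was -0.45 ± 0.09 on the log2 scale (SE; edgeR adjusted p = 0.0121; 95% interval from -0.65 to -0.26), which means that the level fell by 26.9%. In bulk tissue, fewer cells that express a gene and less RNA per cell cannot be told apart, here and in all results that follow.

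Trpm8 had 58.7, 51.4, 61.1 and 47.3 CPM in WT saline and 43.6, 43.1, 39.9 and 44.5 CPM in KI saline. These groups did not overlap either, although WT saline 4 and KI saline 4 lay close to each other. The difference was -0.35 ± 0.09 on the log2 scale (edgeR adjusted p = 0.0389; 95% interval from -0.54 to -0.16). The call was lost in 8 of the 16 fits that left out 1 library, where adjusted p reached 0.103, and without the KI saline libraries 1 and 4, which had the most muscle RNA, where the difference was -0.39 with adjusted p = 0.168.

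Thus 2 of 7 members passed with saline, both lower, against 4.34% of all genes called and 2.19% called lower. Groups that did not overlap with KI lower were found for the same 2 members, against 7.89% of all genes. The median difference of the members was -0.02 and that of all genes 0.00. Trpa1 differed by -0.00 ± 0.09, with a 95% interval from -0.18 to 0.18. Trpv2 differed by -0.02 ± 0.05 and Trpc6 by 0.03 ± 0.07. Trpm2 (-0.11 ± 0.10) and Trpm3 (0.12 ± 0.09) were also within the spread between libraries.

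With CFA the same 2 genes were lower in KI. Trpv1 had 251.1, 287.0, 270.4 and 269.4 CPM in WT CFA and 201.5, 154.8, 159.4 and 202.3 CPM in KI CFA. No KI library came near the WT range, and KI CFA 2 and 3 were the lowest. The difference was -0.59 ± 0.09 on the log2 scale (edgeR adjusted p = 0.00153), so the level fell by 33.4%. Its size with CFA and with saline did not differ beyond error (interaction -0.13 ± 0.13, edgeR adjusted p = 0.783). The lowest WT value was that of WT CFA 1, the library with the conflicting tag, and without it the difference was -0.62 (edgeR adjusted p = 0.00351).

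Trpm8 stood at 49.3, 52.4, 46.6 and 53.0 CPM in WT CFA and at 37.7, 32.6, 43.6 and 44.1 CPM in KI CFA. The groups did not overlap, with WT CFA 3 as the lowest WT library and KI CFA 4 as the highest KI library. The difference was -0.35 ± 0.09 (edgeR adjusted p = 0.0454), as large as with saline, and the interaction was 0.00 ± 0.13. The call with CFA was lost in 13 of 16 fits that left out 1 library, with adjusted p up to 0.169 (KI CFA 2 left out) and 0.0912 when WT CFA 1 was left out. It was also lost with RLE size factors (adjusted p = 0.0514).

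Here again 2 of 7 members passed, against 2.84% of all genes called and 1.75% called lower, and these 2 had groups that did not overlap with KI lower, against 4.44% of all genes. The members' median was -0.19, against 0.00 for all genes. Trpc6 moved the other way. It had 21.7, 21.2, 22.9 and 23.1 CPM in WT CFA and 25.7, 25.7, 27.3 and 24.5 CPM in KI CFA. All 4 KI libraries were above all 4 WT libraries, a pattern found with KI higher in 3.7% of all genes. The difference of 0.22 ± 0.07 did not pass with edgeR (adjusted p = 0.110), while DESeq2 gave adjusted p = 0.0438 and limma-voom 0.0407. Without KI CFA 3, the library with the most neutrophil RNA and the highest Trpc6, the difference was 0.19 (edgeR adjusted p = 0.319). Trpa1 (-0.20 ± 0.09, edgeR adjusted p = 0.318), Trpm2 (-0.19 ± 0.10) and Trpm3 (-0.15 ± 0.09) were lower on average with overlapping groups, and Trpv2 differed by 0.01 ± 0.05.

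Averaged over both injections, the genotype comparison had its greatest precision. Trpv1 fell by 0.52 on the log2 scale with an SE of 0.07 (edgeR adjusted p = 6.14e-05), and Trpm8 fell by 0.35 with an SE of 0.06 (edgeR adjusted p = 0.00184). Over 8 libraries each, Trpv1 ran from 251 to 300.4 CPM in WT (median 270.4) and from 155 to 227 CPM in KI (median 202). Trpm8 ran from 46.6 to 61.1 CPM in WT (median 51.9) and from 32.6 to 44.5 CPM in KI (median 43.3). Both calls held in each of the 16 fits without 1 library and in the 12 other fits, in which adjusted p for Trpm8 reached 0.0201 at most. These 2 of 7 members stand against 8.96% of all genes called and 4.64% called lower, with a median of -0.10 for the members and 0.00 for all genes.

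The other 5 members did not pass in the averaged comparison. Trpv2 differed by -0.01 ± 0.04, and its 95% interval from -0.08 to 0.07 was the narrowest of the 7. Trpc6 (0.12 ± 0.05, edgeR adjusted p = 0.118) and Trpm2 (-0.15 ± 0.07, edgeR adjusted p = 0.180) had unadjusted p-values under 0.05, as did 3779 of the 15507 genes tested. Trpa1 differed by -0.10 ± 0.06 and Trpm3 by -0.01 ± 0.06, with 95% intervals from -0.23 to 0.03 and from -0.14 to 0.11.

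**Figure D2:**
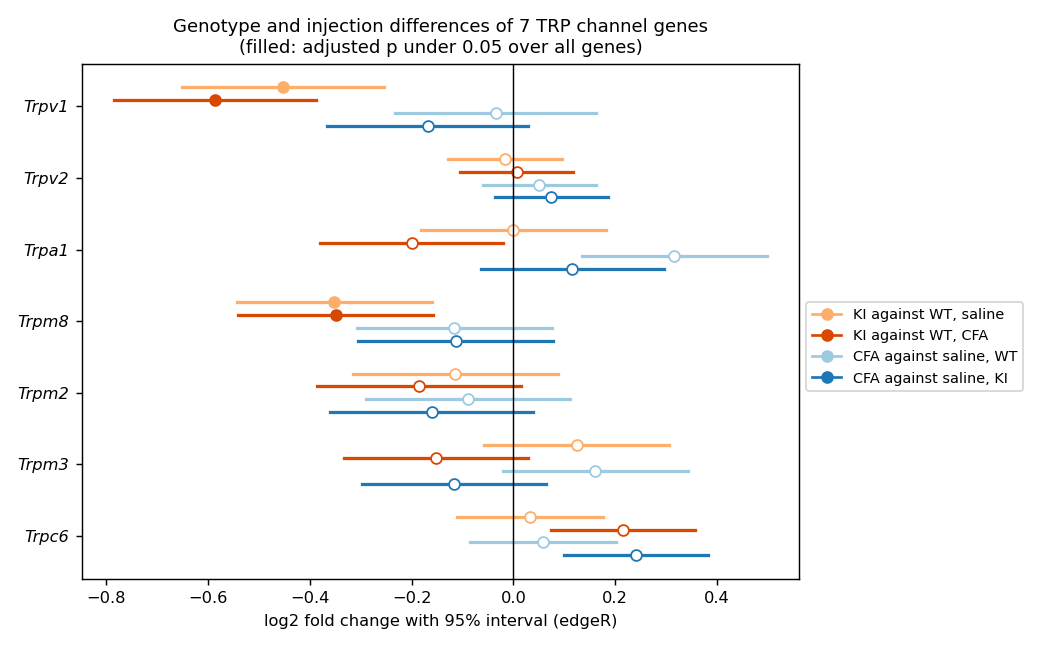
Log2 fold changes from edgeR with 95% intervals for each of the 7 genes, KI against WT with saline and with CFA and CFA against saline in WT and in KI; filled points have an adjusted p under 0.05 over all genes. Only the genotype differences of Trpv1 and Trpm8 are filled, and all 4 of these lie below 0.

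CFA was compared with saline to ask how the channels stand 14 days into joint inflammation. No member passed in WT, in KI or as the mean of both, and very few other genes did. With edgeR, 0% of all genes were called in WT, 0% in KI and 0.0258% (4 genes) in the mean of both, while 1079, 881 and 1019 genes had an unadjusted p under 0.05. DESeq2 called 24, 15 and 57 genes and limma-voom called 1 gene in WT and 7 in the mean, but neither called a member. The members with an unadjusted p under 0.05 were Trpa1 in WT, Trpc6 in KI and both of these in the mean.

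Trpa1 had 76.6, 68.5, 78.0 and 73.9 CPM in WT saline and 79.1, 98.9, 106.3 and 85.5 CPM in WT CFA. Every CFA library was above every saline library, which held with CFA higher for 1.53% of all genes, although WT CFA 1 exceeded the highest saline library only slightly. The difference was 0.32 ± 0.09 on the log2 scale, with an unadjusted p of 0.00177 and an edgeR adjusted p of 0.516, and without WT CFA 1 it was 0.39 with an adjusted p of 0.221. In KI it was 78.9, 68.7, 79.0 and 70.4 CPM with saline and 77.5, 72.1, 89.4 and 82.6 CPM with CFA, with overlapping groups (0.12 ± 0.09, edgeR adjusted p = 0.894). The 2 responses were not shown to differ, since the interaction was -0.20 ± 0.12 (edgeR adjusted p = 0.718).

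Trpc6 was highest in KI CFA. It had 21.7, 19.0, 22.4 and 22.4 CPM in WT saline and 21.6, 22.0, 20.7 and 23.0 CPM in KI saline, close to WT CFA, while all 4 KI CFA libraries were at or above 24.5 CPM. CFA minus saline was 0.24 ± 0.07 in KI (unadjusted p = 0.00214, edgeR adjusted p = 0.409) and 0.06 ± 0.07 in WT. Groups that did not overlap with CFA higher were found for 2.28% of all genes in KI. The interaction of 0.18 ± 0.10 did not pass (edgeR adjusted p = 0.718).

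The genotype difference of Trpm3 was 0.12 with saline and -0.15 with CFA, neither passing the test. Its levels were 92.5, 88.4, 81.1 and 67.7 CPM in WT saline and 93.9, 99.4, 81.3 and 94.0 CPM in WT CFA. KI saline had 85.0, 92.4, 85.0 and 97.1 CPM and KI CFA had 75.7, 79.7, 86.6 and 89.5 CPM. All 4 groups overlapped, and WT saline 4 was the lowest library of all. The interaction of -0.28 ± 0.12 had an unadjusted p of 0.0355 and an edgeR adjusted p of 0.718. No member and 0% of all genes passed in the interaction, where 976 genes had an unadjusted p under 0.05 and DESeq2 and limma-voom also called no member.

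Trpm2 and Trpv2 passed the edgeR test in no comparison. Trpm2 had 62.9, 60.8, 53.8 and 51.9 CPM in WT saline and 56.7, 58.0, 51.1 and 49.9 CPM in WT CFA. It had 59.4, 45.8, 50.2 and 56.7 CPM in KI saline and 45.6, 44.6, 42.8 and 56.5 CPM in KI CFA, where library 4 stood apart from the other 3. Trpv2 kept to a narrow band, with 84.3 to 92.1 CPM in WT saline, 90.6 to 94.2 in WT CFA, 80.0 to 95.8 in KI saline and 90.7 to 95.2 in KI CFA. CFA minus saline was -0.04 ± 0.09 in WT and -0.17 ± 0.09 in KI for Trpv1, and -0.12 ± 0.09 and -0.11 ± 0.09 for Trpm8, none of which passed.

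Ratios of 2 members within a library are free of the scaling between libraries, so the balance among the channels was also compared by this means. For each of the 21 pairs the log2 ratio of counts was tested by a two-sided exact permutation of libraries within each injection, with 4900 assignments and a smallest possible p of 0.000408, and adjusted over the 21 pairs. This test was added after the data had been seen. Between genotypes 11 of 21 pairs passed. The pairs share members and are not independent, and pairs of other genes were not tested, so no share over all genes stands beside this count. Most of the pairs that passed hold Trpv1 or Trpm8 and restate the falls of these genes given above. Trpv1 fell relative to Trpv2 by 0.52, to Trpm3 by 0.52, to Trpc6 by 0.65 and to Trpm2 by 0.37 (each exact permutation adjusted p = 0.00122), and relative to Trpa1 by 0.43 (exact permutation adjusted p = 0.00214). There were 2.93 to 3.56 Trpv1 counts for each Trpv2 count in WT saline, 2.77 to 3.05 in WT CFA, 2.08 to 2.37 in KI saline and 1.66 to 2.17 in KI CFA, with no WT value below any KI value.

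Trpm8 fell in the same way relative to Trpm3 (-0.34) and Trpc6 (-0.48), and the ratio of Trpv2 to Trpm8 rose by 0.35 (each exact permutation adjusted p = 0.00122). The ratio of Trpv1 to Trpm8 itself differed by -0.18, with an exact permutation adjusted p of 0.127, so a greater fall of Trpv1 than of Trpm8 was not shown. Trpa1 relative to Trpm8 was higher in KI by 0.25 (exact permutation adjusted p = 0.0286), a call that ended without KI CFA 1, KI CFA 2, WT CFA 1 or WT saline 1, with adjusted p up to 0.06. The ratios of Trpa1 and of Trpm2 to Trpc6 differed by -0.22 and -0.28 in KI (each exact permutation adjusted p = 0.0429), and these calls ended in 10 and 11 of the 16 tests without 1 library. The ratio of Trpv2 to Trpm3 differed by 0.00 between genotypes, with a sign that changed with the library left out.

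The same ratios were then compared between CFA and saline, with libraries permuted within each genotype, and 4 of 21 pairs passed. Trpa1 was in 3 of them, although its own CFA difference averaged over both genotypes did not pass (edgeR adjusted p = 0.381). Pairs of other genes were not tested here either. WT saline had 3.53, 3.84, 3.47 and 4.06 Trpv1 counts for each Trpa1 count and WT CFA had 3.17, 2.90, 2.54 and 3.15. KI saline had 2.88, 2.43, 2.66 and 2.88 and KI CFA had 2.60, 2.15, 1.78 and 2.45. The WT groups did not overlap, and the KI groups overlapped in the range from 2.43 to 2.60. On the log2 scale the ratio was lower with CFA by -0.34 in WT and -0.28 in KI, with a mean of -0.31 (exact permutation adjusted p = 0.0171).

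Relative to Trpm8, Trpa1 was higher with CFA by 0.42 in WT and 0.24 in KI, with a mean of 0.33 (exact permutation adjusted p = 0.0171). Both calls held in all 16 tests without 1 library, where the means ran from -0.35 to -0.26 for Trpv1 to Trpa1 and from 0.28 to 0.36 for Trpa1 to Trpm8. Trpa1 relative to Trpm2 (0.34) and Trpm8 relative to Trpc6 (-0.27) also passed (each exact permutation adjusted p = 0.0279). Each of these last 2 calls ended without KI saline 1 or 4, WT CFA 3 or WT saline 1 or 2, with adjusted p up to 0.0579. The ratio of Trpv2 to Trpa1 did not pass (-0.15 with CFA, exact permutation adjusted p = 0.108).

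**Figure D3:**
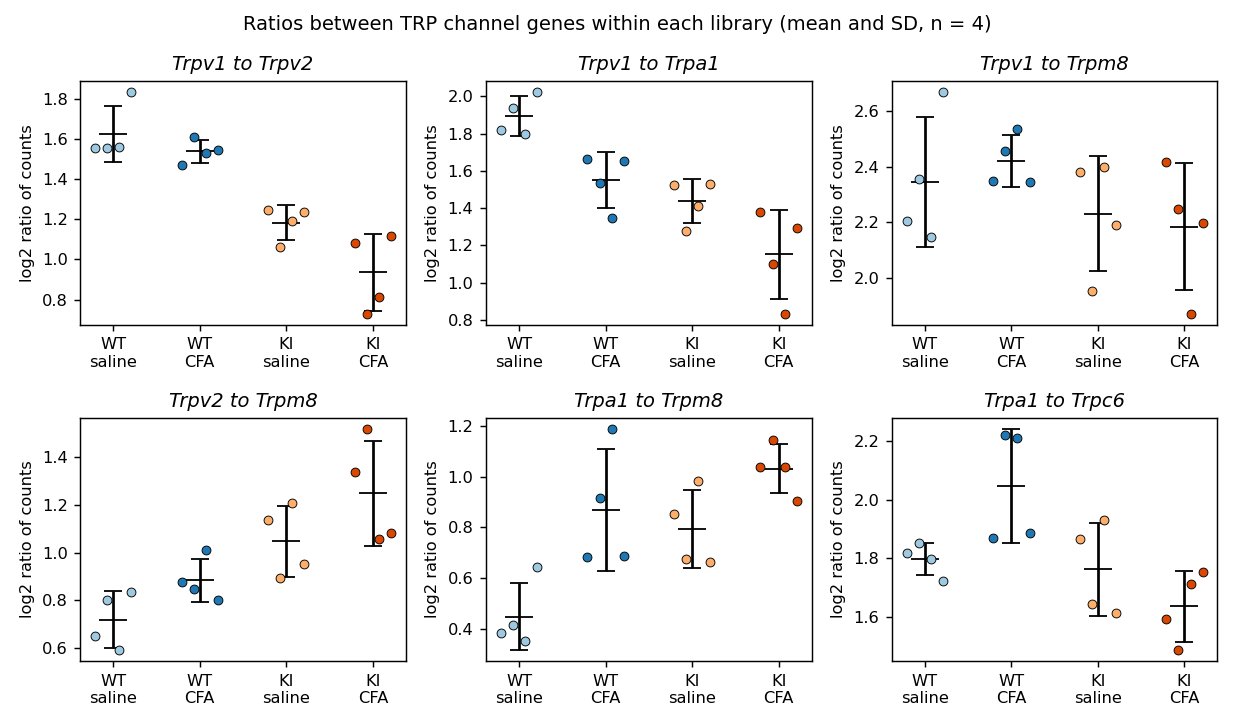
Log2 ratio of the counts of 2 TRP channel genes within each library on the vertical axis for 6 of the 21 pairs, by group on the horizontal axis; points are libraries and bars give the mean and SD (n = 4). The ratio of Trpv1 to Trpv2 separates KI from WT, and the mean ratio of Trpv1 to Trpa1 is lower in KI and lower with CFA.

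Genes with the most similar profile were taken for each member by Pearson's r of log2 CPM over the 16 libraries, among the 13739 genes that averaged 1 CPM or more. These values describe libraries that share groups and depth, and they carry no test. Trpv1 ran closest to Pam (r = 0.98), which encodes the enzyme that amidates neuropeptides, then to C1qtnf7 (0.97) and Mrap2 (0.97). After group means were removed, r with Pam was still 0.92. Trpm8 was most like Btbd3 (0.88), Gfra3 (0.87), the receptor of the growth factor artemin, and Hapln1 (0.87), and with group means removed these values were 0.68, 0.58 and 0.61. Trpv1 and Trpm8 had r = 0.76 with each other, but 0.11 once group means were removed, so the 2 genes shared the difference between groups and little of the variation within them.

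For Trpa1 the closest genes were Itgb1 (r = 0.86), Fam210b (0.82) and Tmem173 (0.82), the gene of the STING adaptor. Trpm2 ran with the estrogen receptor gene Esr1 (0.94), with Rgs9 (0.94) and with the nicotinic receptor subunit gene Chrnb4 (0.90), and r with Esr1 was also 0.94 within groups. Trpm3 was closest to Lrfn5 (0.89), Arfgef3 (0.89) and Golga3 (0.88). Trpv2 was closest to Slc44a2 (0.80), Zfp251 (0.80) and Flot2 (0.77). Trpc6 was closest to Nog (0.83), the gene of the BMP antagonist noggin, to Fam189a2 (0.78) and to Myadml2 (0.78).

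The rest of the TRP family and the genes that act with the channels were counted from lists of known family members and partners, mainly in the genotype comparison averaged over both injections, in which 8.96% of all genes were called and 4.64% were called lower. There were 21 other TRP genes, 13 of them tested; 2 fell, and the median was 0.07 against 0.00 for all genes. Trpc7, of the same subfamily as Trpc6, fell by 0.67 on the log2 scale with an SE of 0.14 (edgeR adjusted p = 0.00435), at levels between 1.64 and 4.01 CPM. Trpc4 fell by 0.32 (edgeR adjusted p = 0.0151). With saline alone none of the 13 passed, against 4.34% of all genes called. With CFA alone Trpc7 fell, against 1.75% of all genes called lower.

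Of 26 partners and lipid regulators of TRP channels, 3 rose, 3 fell and 20 were not called, with a median of -0.02, against 8.96% of all genes called. Tmem100, an adaptor that modulates the coupling of Trpa1 and Trpv1, fell by 0.67 on the log2 scale with an SE of 0.09 (edgeR adjusted p = 0.000151). It stood at 49.6 ± 9.88 CPM in WT saline, 52.7 ± 9.99 in WT CFA, 32.1 ± 1.68 in KI saline and 32.4 ± 4.52 in KI CFA (SD, n = 4), and it fell with each injection alone (-0.63 and -0.70). Pirt, a membrane protein that binds Trpv1 and Trpm8 and raises their activity, fell by 0.19 (edgeR adjusted p = 0.00265) and Ppp3ca, a catalytic subunit of calcineurin, fell by 0.21 (edgeR adjusted p = 0.00333). Plcb3, a phospholipase C, rose by 0.18 (edgeR adjusted p = 0.0145), and 2 protein kinase C genes, Prkca (0.24) and Prkcd (0.13), rose as well. With saline alone 1 rose and 1 fell, against 4.34% of all genes called. With CFA alone 3 fell, against 2.84% of all genes called and 1.75% called lower.

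Of 26 tested receptors that act upstream of TRP channels, 3 rose and 7 fell, with a median of -0.06, against 8.96% of all genes called. Ngfr, the neurotrophin receptor p75, fell by 0.67 (edgeR adjusted p = 1.39e-08), Ptgir, the prostacyclin receptor, fell by 1.11 (edgeR adjusted p = 1.63e-07) and Gfra3 fell by 0.55 (edgeR adjusted p = 1.32e-05), all on the log2 scale. Gfra3 is also one of the 3 genes most like Trpm8. With saline alone 2 rose and 4 fell, against 4.34% of all genes called. With CFA alone 2 rose and 7 fell, against 2.84% of all genes called and 1.75% called lower. Of 13 G protein genes 3 rose and none fell, namely Gnb4 (0.18), Gna14 (0.17) and Gnaq (0.15), with a median of -0.01, against the same 8.96% of all genes. No gene of these lists passed in the CFA comparisons or the interaction by edgeR.

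**Figure D4:**
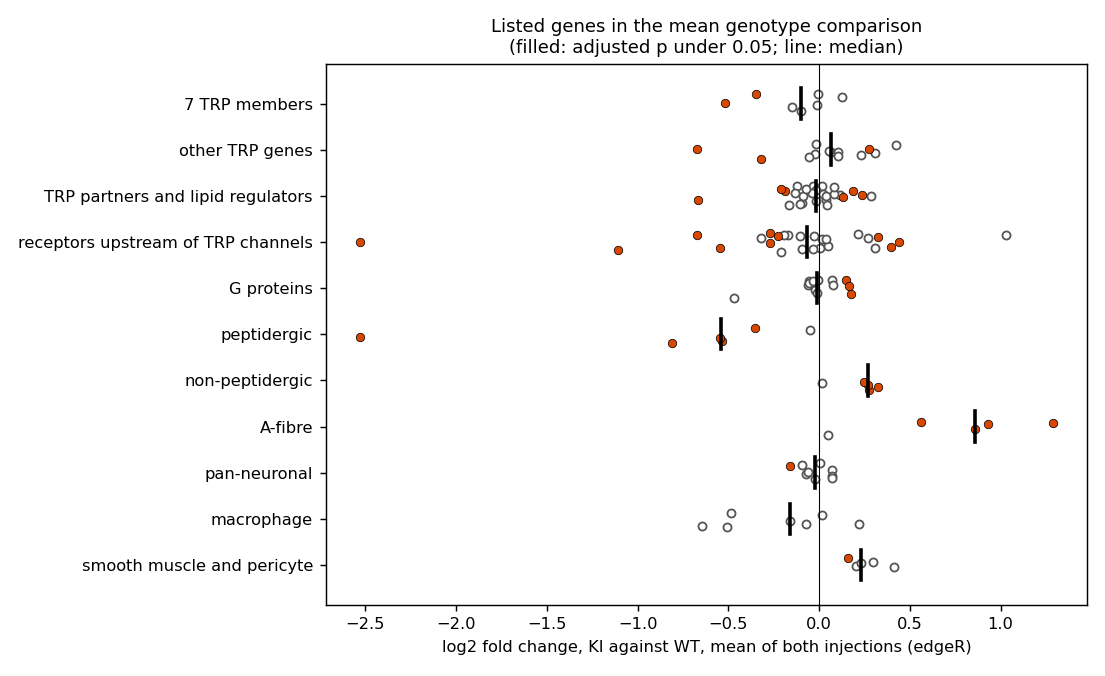
Log2 fold change of KI against WT, averaged over both injections, for the genes of 11 lists, with the 7 TRP members in the first row; each point is a gene, filled where the edgeR adjusted p was under 0.05, and the black line is the list's median. Peptidergic markers lie lower in KI (median -0.54), non-peptidergic and A-fibre markers lie higher (0.27 and 0.86), and pan-neuronal markers lie near 0 (-0.02). The A-fibre markers include Ntrk3, which was also the check of the genotype labels.

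Markers of the cells that could carry the channels moved too, and their part in the TRP results was not tested. In the averaged genotype comparison, 8.96% of all genes were called and 4.64% were called lower. Of 6 peptidergic nociceptor markers 5 fell in it and none rose (median -0.54), among them Calca (-0.81) and Tac1 (-0.53), the genes of the peptides CGRP and substance P. Their summed level was 1927 to 2919 CPM in WT saline and 1960 to 2305 CPM in WT CFA, above the 1140 to 1247 CPM of KI saline and the 1182 to 1375 CPM of KI CFA. Of 5 non-peptidergic markers 4 rose in the average. With saline alone 4 of these 5 markers rose, against 4.34% of all genes called, but with CFA alone only 1 did, Mrgprd, against 2.84%. Their summed levels were 1647 to 2028, 2110 to 2148, 2208 to 2383 and 2259 to 2487 CPM in WT saline, WT CFA, KI saline and KI CFA. The 1647 CPM was that of WT saline 4, and the next lowest WT saline library had 1922 CPM. Of 3 markers of cold-sensing neurons other than Trpm8, Cdh8 rose (0.18, edgeR adjusted p = 0.0451), while Foxp2 (0.29 ± 0.15) and Penk (0.30 ± 0.28) did not pass. Their summed level was 40.5 to 95.9 CPM in KI CFA and 43.9 to 100.2 CPM in KI saline, against 53.3 to 58.0 and 55.6 to 66.2 CPM in WT CFA and WT saline, so the KI ranges reached both below and above those of WT. None of these 3 groups of markers had a called member between CFA and saline.

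Among further neuron markers in the averaged comparison, 1 of 5 for itch neurons rose (Osmr), 1 of 3 for C-fibre low-threshold mechanoreceptors rose (Slc17a8) and 4 of 5 for A-fibre neurons rose, and none fell. Over all genes 8.96% were called in it, which holds for each marker count that follows. The A-fibre genes that rose were Ntrk3, Runx3, Etv1 and Pvalb. Ntrk3 had also served to check the genotype labels, so its rise adds nothing beyond that check. Of 9 pan-neuronal genes Tubb3 fell (-0.16) and 8 did not pass, with summed levels of 9151 to 9436 CPM in WT saline, 9361 to 10019 in WT CFA, 8453 to 8913 in KI saline and 9048 to 9723 in KI CFA. With the pan-neuronal level as a covariate, Trpv1 and Trpm8 kept their calls in all 3 genotype comparisons. With the skeletal muscle level as a covariate, Trpv1 kept its 3 calls, while Trpm8 lost its call with saline (edgeR adjusted p = 0.136) and with CFA (edgeR adjusted p = 0.0904) and kept it in the average. Macrophages are known to express Trpm2 and Trpv2, and none of 7 macrophage markers passed, with summed levels of 27.8 to 44.7 CPM in WT saline, 23.1 to 34.7 in WT CFA, 24.9 to 37.5 in KI saline and 17.8 to 35.8 in KI CFA. Vascular smooth muscle is a known site of Trpc6. Of its 5 markers with pericytes 1 rose between genotypes (Rgs5, 0.16 ± 0.05) and 4 did not pass. Their summed levels were 222 to 242, 197 to 247, 242 to 274 and 242 to 269.6 CPM in WT saline, WT CFA, KI saline and KI CFA. These sums are mostly Rgs5 and are no second measure beside it. In WT saline Rgs5 had a mean of 204 CPM, against 12.5 for Tagln, 8.63 for Acta2, 8.46 for Myh11 and 0.593 for Cnn1. No satellite glia (of 4), Schwann cell (of 4), endothelial (of 3) or tested neutrophil marker (of 4) passed between genotypes by edgeR, while 1 of 4 fibroblast markers (Pdgfra) and 4 of 5 skeletal muscle markers rose.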

How the data were processed

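Poly-A libraries had been prepared with 150 ng of RNA each, a strand-selecting kit and 15 rounds of PCR, and sequenced as 50-nucleotide single-end reads, per the labels' protocols. Lanes are not given per library, so no batch could be examined. The tools, per the submitters' processing notes, included TopHat2 2.1.1, Bowtie2 2.3.5.1 and HTSeq 0.6.1p1 with build mm10; the annotation and strand setting are not given in the sources used here. The authors deposited whole-number read counts for each gene with no normalisation. Of 24982 entries 4755 were 0 in every library. Groups came from the sample titles.

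Differences were tested with edgeR 4.0.16 (R 4.3.3, quasi-likelihood, TMM factors, filterByExpr, 1 mean per group over all 16 libraries) with Benjamini-Hochberg adjustment over 15507 genes; a gene was called below 0.05. The biological coefficient of variation was 11.8% in common. A count of 3 equals 0.0733 to 0.132 CPM. Intervals are at 95%, and log2 CPM used a prior count of 2. P-values measure the spread between pools of mice. DESeq2 1.42.0 and limma-voom 3.58.1, other scalings, covariates, a replicate block and fits with libraries left out were alternatives, and the tests were checked on simulated data. Exon lengths came from GENCODE annotation of the same build.

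The members, lists and alternatives were chosen with earlier results of these data known. The text names the 7 members, at most 4 called members per list by smallest p, and the 3 genes most like each member; label checks were Ntrk3 and Ngfr, and other named markers, promoter motifs and ratio tests were chosen after their values were seen. Some results are not reported here. Ratios used counts with a pseudocount of 0.5.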

Additional observations from a re-analysis of the deposited data

How the results depend on the processing

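Trpv1 kept its direction and its call in all 3 genotype comparisons under each alternative. The number of members called fell from 2 to 1 (Trpv1 alone) with saline when only the groups compared were fitted, with the replicate block, with the skeletal muscle score as a covariate, without the 2 KI saline libraries of highest muscle score and without the 2 WT CFA libraries of low source number. It fell to 1 with CFA under the same 5 settings and with RLE size factors, and it was 3 with DESeq2 and with limma-voom, which added Trpc6. The fits without 2 libraries (KI saline 1 and 4, or WT CFA 1 and 2) were chosen after seeing the data. The number was 2 in every fit of the averaged genotype comparison and 0 in every CFA comparison and in the interaction. Leaving out 1 library gave 1 to 2 members called with saline, 1 to 2 with CFA, 2 to 2 in the average, and 0 to 0 elsewhere.

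Counts over all genes moved more. KI against WT with saline (673 genes) gave 1487 with DESeq2, 214 with only the groups compared, 1509 with the pan-neuronal covariate, 256 with the muscle covariate, 1999 with the WT source number as covariate, 1721 at a threshold of 0.1, 132 without the 2 muscle-rich libraries and 284 to 905 without 1 library, with a drop of over 1.5 times for any KI saline library and for WT saline 3 or 4. With CFA (441 genes) it gave 663 with DESeq2, 184 without the 2 WT CFA libraries and 241 to 652 without 1 library, with such a drop for KI CFA 2 or 3 or WT CFA 2. The average (1390 genes) gave 747 with the muscle covariate, 2171 with the WT source number, 2172 at 0.1, 778 without the 2 muscle-rich libraries and 993 to 1430 without 1 library. CFA against saline gave 24 genes in WT and 15 in KI with DESeq2, 1 in WT with limma-voom, 1 in KI with only the groups compared, and without 1 library 0 to 2 in WT and 0 to 53 in KI, the latter without KI saline 2. Its mean (4 genes) gave 57 with DESeq2, 7 with limma-voom and at 0.1, 2 without a filter and without the 2 WT CFA libraries, 1 with the replicate block, 0 with the pan-neuronal or muscle covariate and without the 2 muscle-rich libraries, and 0 to 39 without 1 library. The interaction gave 0 to 0. The cause of these shifts was not tested, other than fewer libraries where some were left out. Deviations from group means correlated from -0.147 to 0.133 between same-numbered libraries and from -0.152 to 0.193 between differently numbered ones. No pairing by replicate number was thus seen, but these values cannot show that there was none.

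Signs changed only for values near 0 that passed no test. Trpa1 with saline (-0.00) became 0.0063 with RLE factors, 0.0070 without a filter, 0.0063 with DESeq2, 0.017 with limma-voom, 0.0032 with only the groups compared, 0.0093 with the pan-neuronal covariate and 0.00015 without the 2 WT CFA libraries. The interaction of Trpm8 (0.00) became -0.00011 with RLE factors, -0.0013 without a filter, -0.00013 with DESeq2, -0.0038 with the replicate block and -0.015 with the muscle covariate. Under that covariate Trpc6 with saline became -0.0031, Trpv2 with CFA -0.0094, averaged Trpm3 0.0040 and Trpv1 with CFA against saline in WT 0.0044. Averaged Trpv2 became 0.0086 with the pan-neuronal covariate. The interaction of Trpm2 became 0.070 without the 2 muscle-rich and 0.024 without the 2 WT CFA libraries, and without the latter averaged Trpm3 became 0.022 between genotypes and -0.013 between injections. Without 1 library, the genotype difference with saline ran from -0.057 to 0.029 for Trpv2, -0.030 to 0.035 for Trpa1 and -0.013 to 0.064 for Trpc6, and with CFA from -0.0044 to 0.021 for Trpv2. The average ran from -0.025 to 0.018 for Trpv2 and -0.056 to 0.016 for Trpm3. CFA against saline ran from -0.063 to 0.0073 for Trpv1 in WT and from -0.020 to 0.052 for Trpm3 in the mean, and the interaction from -0.022 to 0.064 for Trpv2 and -0.055 to 0.079 for Trpm8. Ratios ran from -0.029 to 0.036 for Trpv2 to Trpm3 between genotypes and, between injections, from -0.031 to 0.069 for Trpv1 to Trpm8, -0.015 to 0.066 for Trpv1 to Trpm2 and -0.041 to 0.050 for Trpm8 to Trpm2.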
